A study of Mus musculus with 80 samples.

Results

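Mammary tumours driven by Myc were ranked by a proliferation score, and the 20 tumours with the highest score (high tumours) were compared with the 20 with the lowest (low tumours), out of 80 tumours in all. The score was the mean of 6 mitotic genes, Plk1, Kif20a, Cdc20, Ttk, Top2a and Aurkb, each as log2(intensity + 5) minus its mean over the 80 tumours. The groups were therefore chosen from measured values, and the 6 score genes are given below as a description with no test. All mice were of the FVB strain and carried Myc under the MMTV promoter, which drives the transgene in mammary epithelium. Their E2F background was null for E2F1, null for E2F2, heterozygous for E2F3 (so that 1 functional allele remained) or wild type, with 20 primary tumours each. Each tumour was frozen at its endpoint and 1 Affymetrix array was hybridised with its total RNA. Ages are not in the labels.

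Proliferation genes are expressed in waves through the cell cycle. At the entry to S phase, E2F transcription factors released from the retinoblastoma protein switch on the genes for replication licensing, DNA polymerases and nucleotide synthesis. Later, in G2, the B-Myb and FoxM1 complexes switch on the genes for mitotic kinases, the spindle and the kinetochore, many of which carry a cell cycle homology element and CCAAT boxes in their promoters. A bulk tumour holds dividing and resting tumour cells as well as stroma, vessels and immune cells.

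Promoters are printed for the 6 genes outside the score with the smallest p in the comparison among those matched in the RefSeq promoter table, and for the score gene Plk1, to show the sequences that the motif counts below were made on. Tpx2, Ercc6l and Dlgap5, whose p ranked among theirs, were not matched. The sequences are from RefSeq (GRCm38.p6), run 5′ to 3′ on the strand of the gene and cover 250 bases before to 50 bases after its start. Capitals mark a cell cycle homology element (TTTGAA, the variant TTTAAA or the further variant TTCGAA, on either strand), a CCAAT box (CCAAT on either strand) or an E2F site (TTTCCCGC, TTTCGCGC, TTTGCCGC or TTTGGCGC on either strand). The windows are chr10:69352863-69353162 (minus strand) for Cdk1, chr11:40733388-40733687 (minus) for Hmmr, chr2:127831810-127832109 (minus) for Bub1, chr4:52438971-52439270 (plus) for Smc2, chr5:45669675-45669974 (plus) for Ncapg, chr11:98907901-98908200 (plus) for Cdc6 and chr7:122159185-122159484 (plus) for Plk1. Cdk1 is the mitotic kinase, Hmmr a spindle organiser, Bub1 a spindle checkpoint kinase, Smc2 and Ncapg are condensin subunits, and Cdc6 loads the replicative helicase.
Cdk1: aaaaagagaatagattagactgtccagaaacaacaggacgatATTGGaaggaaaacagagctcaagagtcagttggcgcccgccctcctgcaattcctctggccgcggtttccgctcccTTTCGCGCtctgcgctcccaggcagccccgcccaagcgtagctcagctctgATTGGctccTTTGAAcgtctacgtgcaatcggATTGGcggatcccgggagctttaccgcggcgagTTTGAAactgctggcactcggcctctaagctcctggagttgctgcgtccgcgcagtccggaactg
Hmmr: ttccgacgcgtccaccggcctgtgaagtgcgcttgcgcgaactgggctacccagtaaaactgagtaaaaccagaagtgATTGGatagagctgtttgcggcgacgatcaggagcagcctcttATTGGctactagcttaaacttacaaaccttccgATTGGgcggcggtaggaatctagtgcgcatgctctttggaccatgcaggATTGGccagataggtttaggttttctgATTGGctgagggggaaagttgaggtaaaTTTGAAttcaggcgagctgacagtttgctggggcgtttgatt
Bub1: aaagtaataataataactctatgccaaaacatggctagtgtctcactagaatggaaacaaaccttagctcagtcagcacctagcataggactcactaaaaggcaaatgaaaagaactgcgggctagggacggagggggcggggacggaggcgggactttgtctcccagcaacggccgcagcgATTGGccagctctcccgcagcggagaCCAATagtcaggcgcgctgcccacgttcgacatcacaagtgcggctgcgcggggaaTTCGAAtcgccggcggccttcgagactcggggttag
Smc2: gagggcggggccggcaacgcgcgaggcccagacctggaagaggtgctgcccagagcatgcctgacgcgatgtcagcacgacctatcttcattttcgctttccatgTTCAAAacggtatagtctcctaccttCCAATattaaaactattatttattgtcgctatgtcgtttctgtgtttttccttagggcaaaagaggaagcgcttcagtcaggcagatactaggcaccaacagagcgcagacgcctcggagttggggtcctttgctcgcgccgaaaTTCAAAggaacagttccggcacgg
Ncapg: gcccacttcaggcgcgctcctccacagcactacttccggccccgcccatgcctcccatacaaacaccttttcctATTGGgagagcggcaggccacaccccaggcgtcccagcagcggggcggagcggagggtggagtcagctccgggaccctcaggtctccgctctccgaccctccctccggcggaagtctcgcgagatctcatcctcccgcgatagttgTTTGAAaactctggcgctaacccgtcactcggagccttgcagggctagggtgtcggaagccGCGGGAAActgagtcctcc
Cdc6: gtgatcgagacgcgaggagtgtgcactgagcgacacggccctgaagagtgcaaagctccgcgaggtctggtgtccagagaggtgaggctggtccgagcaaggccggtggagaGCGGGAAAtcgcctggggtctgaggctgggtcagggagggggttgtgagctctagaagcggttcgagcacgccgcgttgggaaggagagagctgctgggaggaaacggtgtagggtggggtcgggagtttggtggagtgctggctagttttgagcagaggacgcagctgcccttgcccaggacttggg
Plk1: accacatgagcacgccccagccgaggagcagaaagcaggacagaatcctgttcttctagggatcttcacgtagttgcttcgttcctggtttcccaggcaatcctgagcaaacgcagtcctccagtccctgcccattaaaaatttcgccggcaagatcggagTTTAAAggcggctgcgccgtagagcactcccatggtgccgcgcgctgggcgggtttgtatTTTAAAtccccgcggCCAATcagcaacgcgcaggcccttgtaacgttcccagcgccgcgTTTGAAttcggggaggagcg

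The Cdk1 window held cell cycle homology elements that began 71 and 15 bases before the start, with CCAAT boxes at 208, 80 and 48 bases and an E2F site at 131 bases before it. In Hmmr the element began 9 bases after the start and 5 CCAAT boxes lay between 172 and 20 bases before it. Cdc6, the replication gene among them, had an E2F site 138 bases before the start and no match to the other motifs. No match says only that these letters are not in the window, and a match is not a site shown to be bound.

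Scores of the high tumours ran from 0.26 to 0.70 (median 0.43), and those of the low tumours from -1.17 to -0.22 (median -0.43). The limits fell in a continuous range. The last tumour inside the high group, wild-type replicate 2, had 0.26 and the first outside it, E2F1 null replicate 12, had 0.22. At the other end, wild-type replicate 17 was inside the low group at -0.22, and E2F3 heterozygous replicate 5 was outside it, also at -0.22. The lowest scores, -1.17 in wild-type replicate 18 and -0.94 in E2F1 null replicate 6, lay farther from the middle than the highest, 0.70 in E2F3 heterozygous replicate 6.

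**Figure D1:**
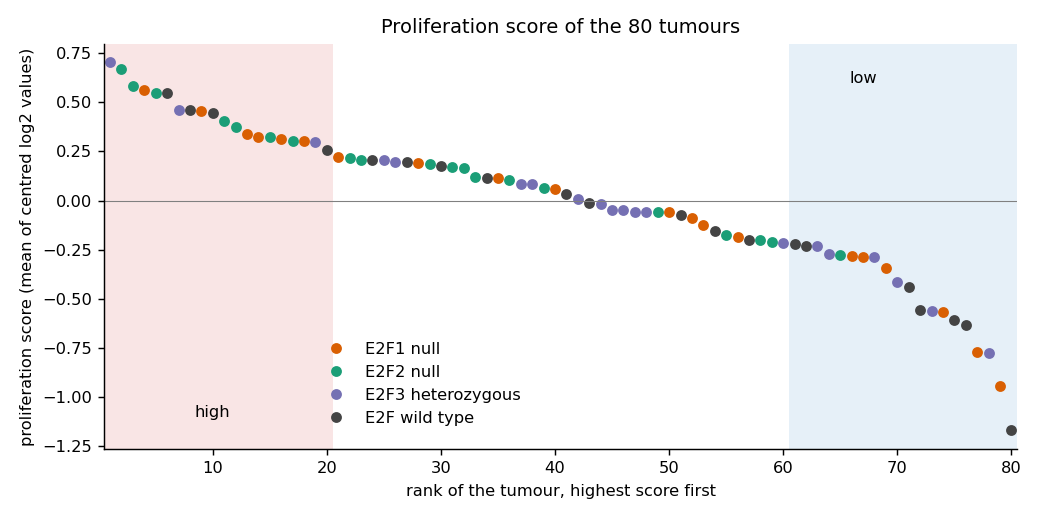
Proliferation score of each of the 80 tumours (y axis, mean of centred log2 values) by rank (x axis), coloured by genotype, with the 20 high tumours shaded at the left and the 20 low tumours at the right. E2F2 null tumours make up 7 of the high and 1 of the low tumours, and the scores fall without a gap at either limit.

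Every genotype supplied tumours to both groups. Of the E2F1 null tumours 6 were high and 6 low, of the E2F2 null tumours 7 were high and 1 low, of the E2F3 heterozygous tumours 3 were high and 6 low, and of the wild-type tumours 4 were high and 7 low. Averaged per label number, a number in the tumour labels whose meaning is not given and which may stand for 1 animal, the score was 0.24 ± 0.20 in E2F2 null (SD, n = 11 numbers) and -0.14 ± 0.45 in wild-type tumours (SD, n = 16). The difference was 0.38 (SE 0.13; two-sided permutation test, p = 0.00924, adjusted p = 0.0277 over 3 comparisons). It did not pass the threshold with each tumour as 1 value (0.27, permutation test, adjusted p = 0.0662) or with a score from 6 S phase genes (0.24, permutation test, adjusted p = 0.214). The score genes were proposed when Plk1 and Kif20a were already known to be higher in E2F2 null than in wild-type tumours of this series, so this p is not independent support. Scores in E2F1 null (-0.03 ± 0.40, SD, n = 16) and E2F3 heterozygous tumours (0.04 ± 0.32, SD, n = 10) differed from wild type by 0.10 (permutation test, adjusted p = 0.493) and 0.17 (permutation test, adjusted p = 0.446).

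The score varied among tumours that shared a label number. There were 19 numbers with 2 or more tumours, 46 tumours in all. The SD of the score within these numbers was 0.30, and the SD of their means was 0.20. Over all 80 tumours, with a shared number or not, the SD was 0.38. Only 1 number held both a high and a low tumour, E2F2 null replicates 12 and 14, with scores 0.83 apart. The 20 high tumours had 20 different numbers and the 20 low tumours had 18.

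Array quality was compared by 4 measures, and 1 differed. The median log2 value of an array was 7.17 ± 0.07 in high and 7.31 ± 0.13 in low tumours (SD, n = 20 each; permutation test, adjusted p = 0.00024). Against this difference of -0.14, 159 of the 184 tested cell cycle genes described below changed by more than 0.14 upward and 11 by more than 0.14 downward. For Gapdh, the 3′ over 5′ ratio of its control probe sets, a measure of RNA integrity, was -0.31 ± 0.06 in high and -0.30 ± 0.09 in low tumours on the log2 scale (SD, n = 20 each; permutation test, adjusted p = 0.659).

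Fibroblast, endothelial and macrophage markers were mostly lower in the high tumours, and this stands beside every result that follows. Skeletal muscle markers were not, with a median log2 fold change of -0.08 over 14 genes. Summed over 21 fibroblast and collagen matrix markers, intensity ran from 8340 to 38776 (median 18535) in high tumours and from 19835 to 205619 (median 40056) in low tumours. The fibroblast score, the mean of the centred log2 values of these markers, had a median of -0.79 in high, 0.13 in middle and 0.29 in low tumours. In 10 low tumours it exceeded the highest value of any high tumour, 0.30, and in 8 high tumours it was below the lowest value of any low tumour, -0.84. The largest values were 3.08 in E2F1 null replicate 6, 2.63 in wild-type replicate 6 and 2.28 in E2F3 heterozygous replicate 13, all low tumours. In bulk tissue, fewer cells of a type and less RNA per cell cannot be told apart. T cell markers Cd3d, Cd3e, Cd4, Cd8a, Cd8b1 and Cd2, B cell markers Ms4a1 and Pax5, and the adipocyte hormone Lep were at or below the filter intensity of 74.6 on all 80 arrays.

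**Figure D2:**
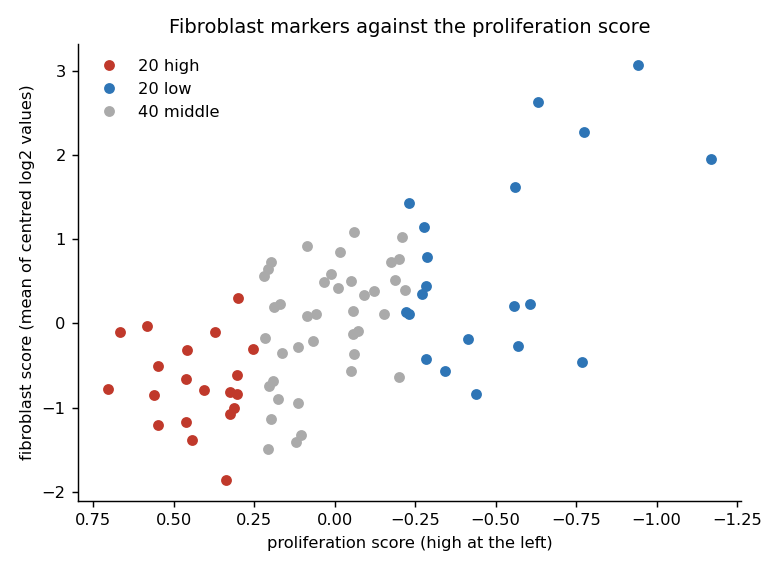
Fibroblast score (y axis, mean of centred log2 values of 21 markers) against the proliferation score (x axis, reversed so that high tumours are at the left) for the 20 high, 20 low and 40 middle tumours. The high tumours reach 0.30 at most, and 10 low tumours lie above that.

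Genes were compared between the groups with limma, with genotype as a covariate and the label number as a random block, over 8760 tested genes outside the score. At a Benjamini-Hochberg adjusted p under 0.05, 3343 genes differed (38.2% of those tested), with 1485 higher (17%) and 1858 lower (21.2%) in the high tumours. The groups were picked for their extremes on the same arrays, and where tumours came from 1 animal is not stated, so p-values measure only the spread between these tumours. The share called is large, and a list's count is read against it. The balance of directions depended on the processing: with quantile normalization 1698 were higher and 1539 lower, and with groups from a score of 6 S phase genes 1574 were higher and 1557 lower. Changes of 2-fold or more were mostly downward, with 47 genes higher (0.537%) and 505 lower (5.76%). Adding the fibroblast score to the model left 334 genes called (3.81%), of which 218 were higher (2.49%) and 116 lower (1.32%). Of these, 206 and 86 were also called in the same direction without it. The SE was little larger (median 0.14, against 0.12), while the median log2 fold change of the 1485 higher genes was 0.20 with the fibroblast score and 0.38 without, and that of the 1858 lower genes -0.22 with it and -0.68 without.

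Cell cycle genes outside the score were higher in the high tumours across most of their lists. Of 184 tested genes on 14 such lists, 147 were higher and 2 lower, with a median log2 fold change of 0.58, against -0.02 over all tested genes. The G1 and E2F lists had 3 of 8 and 2 of 7 higher, against 17% called higher among all tested genes. With quantile normalization they had 3 of 8 and 5 of 7. The list of CDK inhibitors and pocket proteins had 1 of 10 higher and a median of -0.43. In 11 genes outside the score (0.126% of those tested) every high tumour exceeded every low tumour: Bub1, Cdc6, Cdk1, Cip2a, Dlgap5, Ercc6l, Kif11, Ndc80, Pcna, Rfc5 and Smc2, of which Cip2a, Dlgap5 and Ercc6l were named after their values were seen. In no gene was every high tumour below every low tumour. With the fibroblast score in the model, 89 of the 184 were still called higher and none lower, with a median of 0.43. These made up 89 of the 218 genes then called higher. Without the 3 low tumours with the highest fibroblast scores, an alternative added with the data in view, 146 of the 184 were higher.

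The score genes differed by construction. Log2 fold changes were 0.72 for Plk1, a kinase of mitotic entry, 1.00 for Kif20a, a kinesin of cytokinesis, and 0.81 for Cdc20, the activator of the anaphase promoting complex. They were 0.87 for Ttk, a spindle checkpoint kinase, 0.89 for Top2a, which untangles chromosomes, and 1.15 for Aurkb, the kinase of the chromosomal passenger complex.

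Among cyclins and kinases of S, G2 and M phase, 13 of 15 tested genes were higher. On the log2(intensity + 5) scale used for every level below, Cdk1 ran from 11.08 to 11.53 (median 11.33) in high tumours and from 9.70 to 10.82 (median 10.58) in low tumours. The groups did not overlap, with a change of 0.81 (log2, SE 0.08, limma adjusted p = 1.14e-08). Its partners in S phase and mitosis moved with it: Ccna2 by 0.85 (SE 0.09) and Ccnb2 by 0.86 (SE 0.10). Mybl2, which encodes B-Myb, had a median of 7.92 in high and 7.33 in low tumours and a log2 fold change of 0.64 (SE 0.15, limma adjusted p = 0.00103). Foxm1 did not pass the threshold, with medians of 7.18 in high and 6.86 in low tumours and a log2 fold change of 0.26 (SE 0.11, limma adjusted p = 0.0531).

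The spindle checkpoint and anaphase list had 12 of 17 genes higher. Bub1 ran from 9.62 to 10.45 (median 10.13) in high and from 8.63 to 9.60 (median 9.17) in low tumours. The groups did not overlap, with a log2 fold change of 0.86 (SE 0.09, limma adjusted p = 1.66e-08). Mad2l1, the checkpoint protein that holds Cdc20 inactive, changed by 1.01 (SE 0.14), and Ube2c, the ubiquitin-conjugating enzyme of the anaphase promoting complex, by 0.77 (SE 0.10). Of spindle motors and organisers, 16 of 17 were higher. Kif11, the motor that separates spindle poles, ran from 9.20 to 10.15 (median 9.75) in high and from 7.88 to 9.16 (median 8.67) in low tumours, again without overlap, and changed by 0.98 (SE 0.11). Hmmr changed by 1.05 (SE 0.11), Tpx2, which activates Aurora A, by 0.80 (SE 0.08) and Birc5, of the chromosomal passenger complex, by 0.95 (SE 0.11).

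Chromosome structure genes followed. Kinetochore and centromere genes were higher in 11 of 15, with the microtubule-binding Ndc80 at 0.84 (SE 0.10) and the centromeric histone Cenpa at 0.90 (SE 0.12). Condensin and cohesin genes were higher in 12 of 12, with Ncapg at 0.90 (SE 0.09) and Smc2 at 0.80 (SE 0.08). Of 7 cytokinesis genes 6 were higher and 1, the cytoskeletal Septin9, was lower at -0.49 (SE 0.19). Cep55, which recruits the abscission machinery, changed by 0.75 (SE 0.08) and Racgap1, of the central spindle, by 1.00 (SE 0.17). All 7 proliferation markers outside the score were higher. Mki67, which encodes the clinical marker Ki-67, ran from 11.39 to 12.34 (median 11.83) in high and from 10.70 to 11.74 (median 11.22) in low tumours. Here 14 of the 20 high tumours exceeded every low tumour, with a log2 fold change of 0.65 (SE 0.09, limma adjusted p = 8.61e-07). The mitotic kinases Melk and Pbk changed by 0.81 (SE 0.11) and 0.78 (SE 0.12).

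Replication genes, none of which entered the score, moved as widely. All 21 licensing and origin firing genes were higher, with a median of 0.62. Cdc6 ran from 8.54 to 9.43 (median 9.05) in high and from 7.39 to 8.35 (median 8.11) in low tumours, without overlap, and changed by 0.97 (SE 0.10, limma adjusted p = 1.66e-08). Gins1 and Mcm10, which activate the helicase, changed by 0.88 (SE 0.10) and 0.85 (SE 0.12), and the helicase subunit Mcm2 by 0.67 (SE 0.15). Among DNA polymerases and fork proteins 22 of 23 were higher. Pcna, the sliding clamp, ran from 12.58 to 13.02 (median 12.80) in high and from 11.69 to 12.56 (median 12.13) in low tumours. The groups did not overlap although the log2 fold change was only 0.59 (SE 0.07, limma adjusted p = 1.06e-07). The clamp loaders Rfc4 and Rfc5 changed by 0.89 (SE 0.11) and 0.83 (SE 0.10).

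Nucleotide synthesis was higher in 13 of 17 genes. With the fibroblast score in the model 3 were called higher, and the list median was 0.24, against 0.52 without it. Tk1, thymidine kinase, ran from 9.38 to 10.45 (median 9.90) in high and from 8.20 to 9.43 (median 8.89) in low tumours; 19 of 20 high tumours exceeded every low tumour, with a log2 fold change of 1.04 (SE 0.11). Rrm2, the small subunit of ribonucleotide reductase, changed by 0.95 (SE 0.11) and Mthfd2, of mitochondrial folate metabolism, by 1.21 (SE 0.24). Tk1 and Rrm2 stayed called with the fibroblast score, while Mthfd2 did not (0.87, limma adjusted p = 0.0846). Chromatin assembly genes were higher in 11 of 11, among them Chaf1b at 0.68 (SE 0.08), the histone chaperone Nasp at 0.68 (SE 0.10) and Uhrf1, which recruits the maintenance DNA methyltransferase, at 0.84 (SE 0.17). Homologous recombination and repair genes were higher in 14 of 17, with Fanci, of the Fanconi pathway, at 0.85 (SE 0.11) and the checkpoint kinase Chek1 at 0.71 (SE 0.10).

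**Figure D3:**
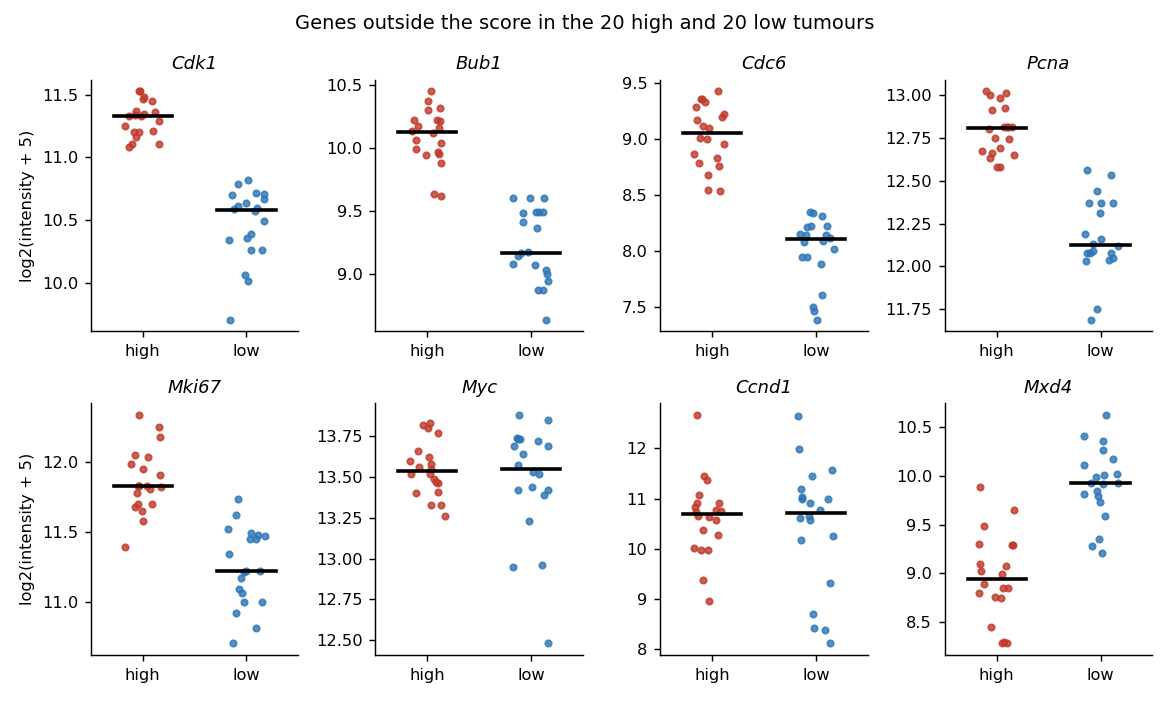
Level of 8 genes outside the score, as log2(intensity + 5) on the y axis of each panel (ranges differ), in the 20 high (left, red) and 20 low tumours (right, blue); points are tumours and lines are medians. Cdk1, Bub1, Cdc6 and Pcna do not overlap between groups, Mki67 overlaps in part, Myc and Ccnd1 have like medians, and Mxd4 is lower in the high tumours.

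Of 8 G1 cyclins and kinases 4 were called, against 38.2% of all genes. Of these, 3 were higher: Ccne2, a cyclin E, at 0.62 (SE 0.15), and the kinases Cdk4 at 0.32 (SE 0.07) and Cdk2 at 0.30 (SE 0.08). With the fibroblast score in the model Ccne2 was still called (0.67, limma adjusted p = 0.0394). Cdk4 (0.15, limma adjusted p = 0.354) and Cdk2 (0.28, limma adjusted p = 0.127) were not. Ccnd2, a D-type cyclin, was the 1 that was lower, from 5.99 to 7.99 (median 7.01) in high and from 7.16 to 11.15 (median 7.88) in low tumours. Its change was -1.53 (SE 0.34, limma adjusted p = 0.000741), and -0.37 (adjusted p = 0.57) with the fibroblast score in the model. Ccnd1, cyclin D1, spanned 8.96 to 12.67 (median 10.69) in high and 8.11 to 12.65 (median 10.71) in low tumours. The ranges coincided, with a log2 fold change of -0.04 (SE 0.34, limma adjusted p = 0.929). With groups formed by the score from S phase genes the change was 0.96 (limma adjusted p = 0.0249), so for this gene the call depends on the score.

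Of 10 CDK inhibitors and pocket proteins only Rbl1, the p107 pocket protein, was called, and it was higher by 0.46 (SE 0.07, limma adjusted p = 1.61e-05). Cdkn1a (p21) had medians of 8.65 in high and 9.75 in low tumours, with a change of -0.61 (SE 0.42, limma adjusted p = 0.253). Cdkn1b (p27) changed by 0.25 (SE 0.17, limma adjusted p = 0.235), Cdkn2a by -0.49 (SE 0.36, adjusted p = 0.277) and Rb1 by -0.50 (SE 0.26, adjusted p = 0.119). In the E2F family 2 of 7 were higher, and 5 of 7 with quantile normalization. These were E2f8, an atypical repressor that is itself a cell cycle target, at 0.67 (SE 0.11, limma adjusted p = 1.71e-05), and the dimer partner Tfdp1 at 0.33 (SE 0.10). The activators E2f1 and E2f3 changed by 0.21 (SE 0.11, limma adjusted p = 0.139) and 0.21 (SE 0.12, limma adjusted p = 0.144); both genes are altered in some of these tumours, and genotype was in the model.

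Myc, the driving oncogene, did not pass the test. Its level ran from 13.26 to 13.83 (median 13.53) in high and from 12.48 to 13.88 (median 13.55) in low tumours. It changed by 0.02 on the log2 scale (SE 0.10, limma adjusted p = 0.856). Once the fibroblast score entered the model, the value was -0.33 (limma adjusted p = 0.00998), so the direction depends on that term; whether the probe set reads the transgene, the endogenous gene or both was not tested. Of 8 Myc network genes, Mlx was higher, at 0.27 (SE 0.09), and 3 were lower, against 17% higher and 21.2% lower among all tested genes. Mxd4, which competes with Myc for Max, ran from 8.28 to 9.89 (median 8.94) in high and from 9.21 to 10.63 (median 9.93) in low tumours. Every high tumour was below the low median, with a change of -0.88 (SE 0.14, limma adjusted p = 1.33e-05), and -0.76 (limma adjusted p = 0.00804) with the fibroblast score. Mnt, another Max partner, changed by -0.63 (SE 0.18), and Mga by -0.43 (SE 0.15). With the fibroblast score in the model Mlx (0.14), Mnt (-0.34) and Mga (-0.39) were not called.

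Genes of growth and metabolism were called in part. Of 27 ribosome biogenesis genes 14 were higher and none lower (median 0.27), among them the nucleolar Nolc1 at 0.50 (SE 0.12) and spermidine synthase, Srm, at 0.46 (SE 0.13). Of 13 ribosomal protein genes none was called. Splicing genes were higher in 12 of 16 (Lsm2 at 0.60, SE 0.12, and Snrpd3 at 0.54, SE 0.10), proteasome genes in 6 of 18 (Psmd12 at 0.35, SE 0.08) and oxidative phosphorylation genes in 9 of 20 (Ndufs1 at 0.35, SE 0.08). Of 17 cholesterol and fatty acid synthesis genes 8 were higher and 1 lower. Fdps, farnesyl diphosphate synthase, changed by 1.06 (SE 0.17) and squalene epoxidase, Sqle, by 0.77 (SE 0.16), while the desaturase Scd1 changed by -0.88 (SE 0.34). In the hypoxia list 2 of 18 were higher, a share below the 17% called higher among all genes. These were Egln3, an oxygen sensor, at 1.63 (SE 0.31) and the glycolytic Pfkp at 0.77 (SE 0.20). Adding the fibroblast score to the model left 0 ribosome biogenesis, 0 proteasome and 0 hypoxia genes called, 2 splicing and 3 cholesterol and fatty acid genes called higher, and 1 oxidative phosphorylation gene called lower.

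Some growth arrest and apoptosis genes were lower. Of 21 p53 targets and apoptosis genes 7 were lower and none higher, and of 16 quiescence and FoxO genes 9 were lower and none higher, against 21.2% lower among all genes. In the model with the fibroblast score, 4 p53 and apoptosis genes and 1 quiescence gene were called lower. Both the 7 and the 4 include Bcl2l1, an inhibitor of apoptosis, at -0.59 (SE 0.11) and, with the fibroblast score, -0.60. It was named after its values were seen. Btg2, an antiproliferative p53 target on both lists, ran from 7.96 to 9.77 (median 8.68) in high and from 8.63 to 11.91 (median 9.82) in low tumours. Every high tumour was below the low median; the change was -0.997 (SE 0.24, limma adjusted p = 0.00162), and -1.06 (limma adjusted p = 0.0459) with the fibroblast score. Trp53inp1, an apoptosis and autophagy protein, changed by -0.99 (SE 0.19), the same with the fibroblast score (limma adjusted p = 0.0168). Pmaip1 (Noxa), Klf4 and Gas6 changed by -1.24 (SE 0.25), -1.17 (SE 0.30) and -1.42 (SE 0.29), and by -0.36, -0.59 and -0.24 with the fibroblast score, where none was called.

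The unfolded protein response list was mixed, with 2 genes, Asns (0.52, SE 0.20) and Trib3 (0.64, SE 0.25), higher and 3 lower of 16. Both shares were below those over all tested genes, 17% higher and 21.2% lower. Dnajb9, a chaperone of the endoplasmic reticulum, ran from 8.61 to 9.56 (median 9.07) in high and from 9.22 to 10.45 (median 9.87) in low tumours. Every high tumour was below the low median, with a change of -0.72 (SE 0.10, limma adjusted p = 1.69e-06), and -0.61 (limma adjusted p = 0.00282) with the fibroblast score.

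Stromal genes were lower as whole lists. All 21 fibroblast and collagen genes were lower, with a median of -1.31; Dcn (decorin) ran from 6.95 to 10.01 (median 8.10) in high and from 6.63 to 12.88 (median 10.03) in low tumours, a change of -2.21 (SE 0.40, limma adjusted p = 8.2e-05). The groups overlapped, but no high tumour reached the low median. The receptor Pdgfra changed by -2.05 (SE 0.37) and the protease Fap by -1.54 (SE 0.31). Endothelial genes were lower in 13 of 14, with Vwf at -2.02 (SE 0.42) and the angiopoietin receptor Tek at -1.17 (SE 0.24). Macrophage and myeloid genes were lower in 12 of 16. Csf1r, the receptor for macrophage colony stimulating factor, ran from 8.99 to 10.76 (median 10.01) in high and from 10.29 to 12.79 (median 10.84) in low tumours and changed by -1.08 (SE 0.22, limma adjusted p = 0.000284). All 4 tested MHC class II genes were lower, with Cd74 at -1.85 (SE 0.39) and H2-Aa at -1.87 (SE 0.39). None of these genes was called with the fibroblast score in the model, where the fibroblast list has a median of 0.02 by construction and the endothelial and macrophage lists of -0.06 and 0.05.

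Epithelial lists were described separately, and no test compared them. Basal and myoepithelial genes were lower in 8 of 12. Krt14, a basal keratin, ran from 4.63 to 11.60 (median 7.23) in high and from 5.84 to 13.02 (median 11.65) in low tumours. No high tumour reached the low median, and the change was -2.66 (SE 0.63, limma adjusted p = 0.00139), and -1.02 (limma adjusted p = 0.463) with the fibroblast score. Krt5, its partner, changed by -1.81 (SE 0.57), and by 0.01 with the fibroblast score. Luminal genes were lower in 3 of 16, a share near the 21.2% called lower among all genes. Krt8, a luminal keratin, changed by -0.36 (SE 0.14, limma adjusted p = 0.0445) and Krt19 by -1.79 (SE 0.55, limma adjusted p = 0.01). Milk and secretory genes were lower in 5 of 16, with the antimicrobial Ltf (lactoferrin) at -2.93 (SE 0.74) and the milk fat globule protein Mfge8 at -1.14 (SE 0.27). With the fibroblast score in the model no gene of the basal, luminal or milk lists was called; the basal median was 0.03 with it and -1.01 without, and the luminal median -0.43 with it and -0.21 without. Of 12 mesenchymal transition genes 9 were lower, among them N-cadherin, Cdh2, at -1.78 (SE 0.36) and the receptor kinase Axl at -1.29 (SE 0.22). None of the 12 was called with the fibroblast score in the model (Cdh2 at -0.81, Axl at -0.28). The list median was then 0.008, against -1.14 without the fibroblast score. Fn1 is on this list and also among the fibroblast markers. Adipocyte genes were lower in 4 of 8, with Pparg, the regulator of fat cell differentiation, at -1.27 (SE 0.38), and interferon response genes in 0 of 18.

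**Figure D4:**
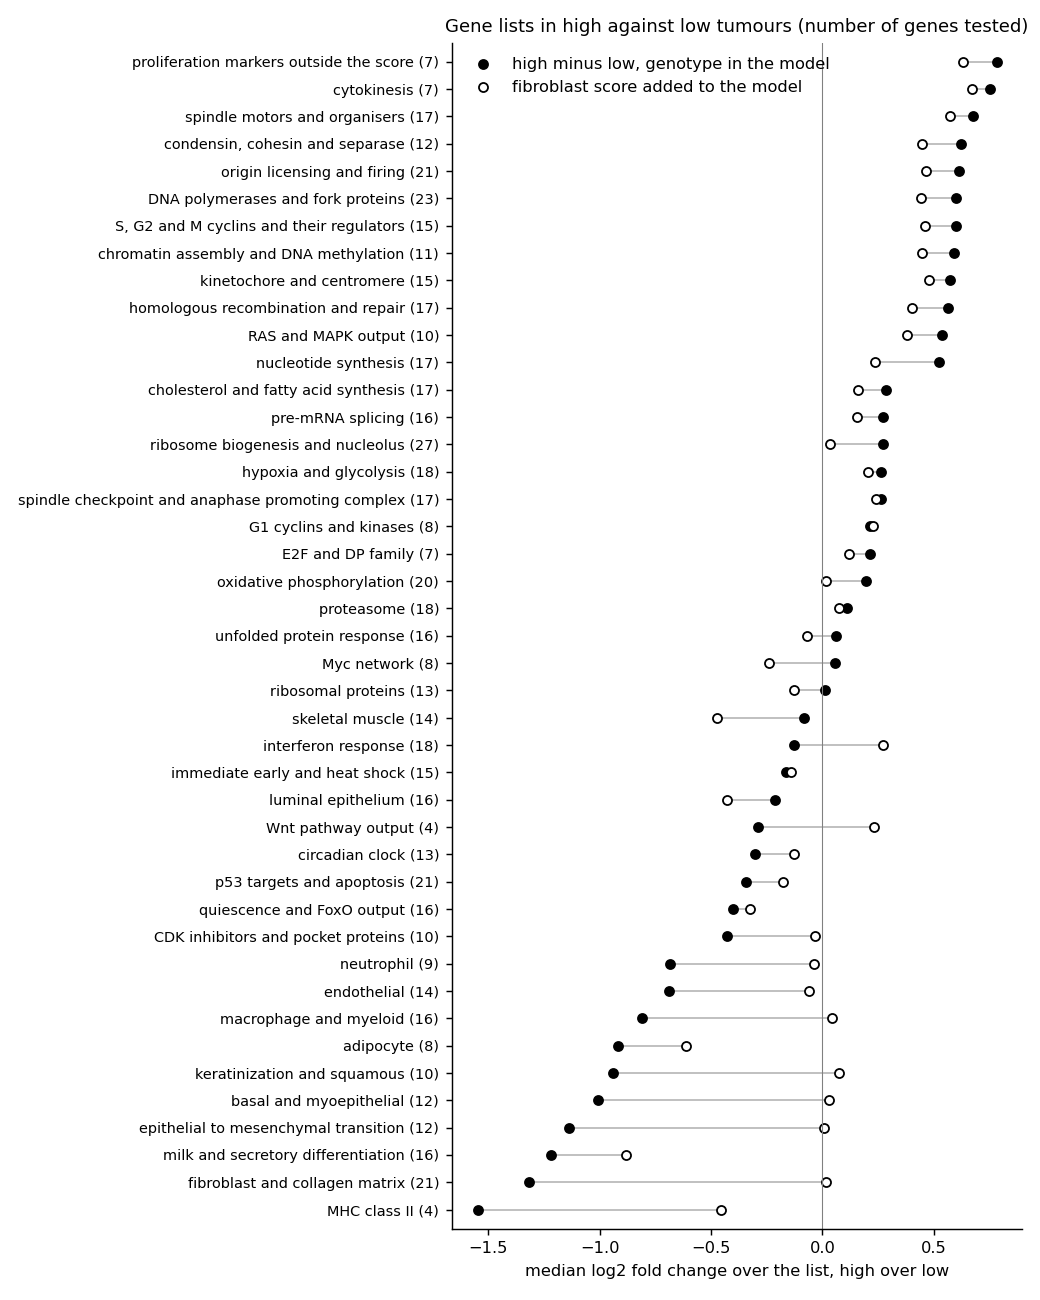
Median log2 fold change (x axis, high over low tumours) of each gene list with 4 or more tested genes (y axis, number tested in brackets), without (filled) and with the fibroblast score in the model (open). With the fibroblast score, 9 of the 14 cell cycle lists keep medians of 0.44 or more, while macrophage, endothelial, basal and mesenchymal lists move to near 0; the fibroblast list does so by construction.

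The genes with the largest single changes came mostly from outside these lists. The 10 largest rises were Chn2, Cst10, Tacr3, Tesc, Bex2, Bex4, Prom1, Stk26, Homer2 and Socs2, none of them on a cell cycle list. Chn2, a Rac GTPase-activating protein, ran from 4.66 to 11.20 (median 9.42) in high and from 3.65 to 10.06 (median 5.78) in low tumours, a change of 2.83 (SE 0.73, limma adjusted p = 0.00282). Both groups held tumours at low and at high levels. Socs2, a suppressor of cytokine signalling, ran from 7.04 to 11.38 (median 10.23) in high and from 5.82 to 10.28 (median 8.37) in low tumours, a change of 1.66 (SE 0.49, limma adjusted p = 0.00741). Of the 10, none was called with the fibroblast score in the model, and 4 (Cst10, Tesc, Homer2 and Socs2) had the opposite sign among E2F3 heterozygous tumours alone, which were 3 high and 6 low. The 10 largest falls were Ltf, the acute phase protein Hp, Krt14, the surfactant protein Sftpd, the kallikreins Klk6 and Klk10, the retinaldehyde dehydrogenase Aldh1a3 and the plasma cell genes Igha, Igkv8-30 and Jchain. Igha, the constant region of IgA, ran from 5.59 to 11.76 (median 8.13) in high and from 7.97 to 13.17 (median 11.54) in low tumours. In 8 high tumours it was below every low tumour, with a change of -2.80 (SE 0.52, limma adjusted p = 0.000114). It was the only one of these 10 called with the fibroblast score in the model (-2.40, limma adjusted p = 0.0348).

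Genes were also set against the score within the 40 middle tumours, which entered neither group. The score is the one that formed the groups, so these slopes are a description and not separate support. Slopes are given per 0.93 score units, the distance between the mean scores of the high and low tumours. With limma, 46 genes were called (0.525%), 44 with a positive slope (0.502%) and 2, Dbn1 at -2.33 and Psd3 at -1.72, with a negative slope (0.0228%). Of the 44, 43 were also higher in the high tumours, and 31 were on the cell cycle lists. Over the 184 cell cycle genes the median slope was 0.57, and 165 were positive, against 49.1% of all tested genes. Examples were Ccna2 at 1.18 (limma adjusted p = 0.000247), Bub1 at 1.21 (limma adjusted p = 0.000581), Hmmr at 1.18 (limma adjusted p = 0.00396), Cdk1 at 0.79 (limma adjusted p = 0.00249) and E2f8 at 1.07 (limma adjusted p = 0.00485). Of the 10 genes with the largest rises, 1 had a positive slope and 0 were called. Of the 10 with the largest falls, 5 had a negative slope and 0 were called; Igha had a slope of 1.29 (limma adjusted p = 0.747), opposite in sign to its change between the groups. Chn2 had a slope of -3.62 (limma adjusted p = 0.513) and Socs2 of -3.98 (limma adjusted p = 0.268). List medians did not all keep their direction. The milk, adipocyte and RAS output lists had median slopes of 0.82, 1.12 and -1.56, against -1.22, -0.92 and 0.54 between the groups. The fibroblast, endothelial and macrophage lists kept theirs, at -1.84, -0.69 and -0.92. No gene of these lists was called.

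Within single genotypes the cell cycle genes were mostly positive. Of the 184, 171 had a positive log2 fold change among E2F1 null, 173 among E2F3 heterozygous and 169 among wild-type tumours, with medians of 0.61, 0.49 and 0.58, against 0.02, -0.03 and -0.04 over all tested genes. At an adjusted p under 0.05, limma called 110 genes among E2F1 null tumours, 47 of them cell cycle genes called higher. Among E2F3 heterozygous and wild-type tumours it called 0, with 1055 and 2357 genes at an unadjusted p under 0.05. E2F2 null tumours, with 7 high and 1 low, were not fitted alone, since at least 2 tumours per group were required. A test over all 80 tumours of whether a gene's slope on the score differed between genotypes called 0 genes (0%), with 232 at an unadjusted p under 0.05, where 438 would be 5% of the genes. The smallest p were for H2bc18, Ckb, Cherp, Pdia4 and Bcl2l2 (limma adjusted p = 1.00 for each).

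Promoter motifs were counted in the 7097 tested genes with a RefSeq promoter (81.0%). Cell cycle homology elements were in 26.7% of promoters of genes called higher, 18.3% of those called lower and 20.6% of all tested genes; in the whole table of 27025 genes the share was 29%. CCAAT boxes were in 46%, 34.4% and 38.2% of the same 3 sets, and in 37.9% of the whole table. The lists differed among themselves. Of 63 genes on the mitosis lists 65.1% held a cell cycle homology element and 6.35% an E2F site, and of 53 on the replication and nucleotide lists 24.5% held the element and 28.3% an E2F site. E2F sites were in 7.26% of genes called higher, 2.82% of those called lower and 4.38% of all tested genes (2.32% of the whole table). The E-box CACGTG, which Myc and Max bind, was in 11.7% of genes called higher, 9.07% of those called lower and 10.5% of all tested genes (7.24% of the whole table). These shares are descriptions with no test.

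**Figure D5:**
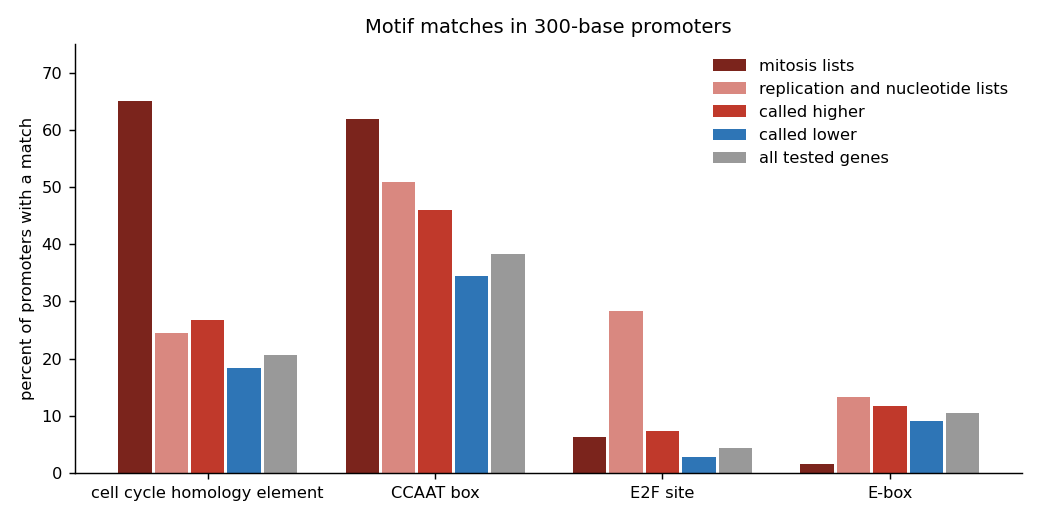
Percent of 300-base RefSeq promoters (y axis, from 0) with at least 1 match to each motif (x axis), for 63 genes of the mitosis lists, 53 of the replication and nucleotide lists, the 1253 genes called higher, the 1456 called lower and all 7097 tested genes. The cell cycle homology element stands out in the mitosis lists at 65.1% and the E2F site in the replication lists at 28.3%.

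The share of called genes was counted by chromosome, with no test. Of the score genes, Top2a and Aurkb lie on chromosome 11 and the others on chromosomes 4, 7, 9 and 18. Whether this bears on the shares was not tested. The share called higher was largest on chromosome 11, at 23.1% of 774 tested genes, and chromosome 6, at 21.8% of 459, and smallest on chromosome 8, at 12% of 467, against 17% overall. The share called lower was largest on chromosomes 1 and 19, at 27.4% each, and smallest on chromosome 11, at 15.6%, and chromosome 6, at 15.7%, against 21.2% overall.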

How the data were processed

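The deposited intensity values are on a linear scale and, per the submitters' processing notes, came from Affymetrix Expression Console with MAS5 (no version is given in the sources used here). The mean without the extreme 2% of values was 500.2 on each array, so the authors had scaled the arrays, and a change in total mRNA per cell cannot be seen. Of 22626 probe sets that are no controls, 20380 had 1 gene symbol, 691 several and 1555 none; the last 2 kinds were not used. Symbols were updated through RefSeq gene IDs.

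Intensities were converted to log2(intensity + 5). A gene was represented by its brightest probe set and tested where 10 or more of the 80 arrays showed it above 74.6 (40th percentile of all values), leaving 8766 of 12393 genes. High and low tumours were compared with limma 3.58.1 (trend and robust options, two-sided) in R 4.3.3, with statmod 1.5.0 for the block on the label number, whose consensus correlation was 0.479. This correlation rests on few tumours: 1 number held both a high and a low tumour and 1 held 2 or more low tumours. With a continuous score over all 80 tumours it was 0.129. Benjamini-Hochberg adjustment ran over the 8760 genes outside the score. The same settings gave the slopes in the middle 40 tumours and the F test of score by genotype. Single values were compared by permutation tests with 100000 resamples (scipy 1.17.1). In simulated data for high against low tumours with 8766 genes, 100 were changed by 0.5 on the log2 scale and 100 by 1. The remaining 8566 were left unchanged. Calls were made for 61% of those changed by 0.5, 87% of those changed by 1 and 0.07% of those unchanged. Whether these shares hold for the measured data, where 38.2% of tested genes were called and the consensus correlation was 0.479, was not tested. How they depend on that correlation, or on genes that vary together across tumours, was not tested either. Precision is limited by the number of arrays, with a median SE of 0.12 on the log2 scale.

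Named genes were the 10 largest called changes in each direction, up to 4 called members of each list (or the smallest p where none was called), a fixed set of cell cycle regulators and the 5 smallest interaction p-values; not all are printed. The score genes, groups, gene lists and tests were chosen with earlier results of these data known. Alternatives changed the pseudocount, filter, normalization, covariates, block, group size and score. Numbers of samples within a genotype only name them and pair nothing.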

Additional observations from a re-analysis of the deposited data

How the results depend on the processing

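Under 21 alternatives, 19 of them listed at the outset and 2 chosen after seeing the data, the count of called genes stayed within 1.5 times of 3343, except as follows. With the fibroblast score it was 334 (218 higher, 116 lower; 89 cell cycle genes higher), and with fibroblast, macrophage and endothelial scores together, chosen after seeing the data, 329 (197 higher, 132 lower; 80 cell cycle genes higher). Over every probe set it was 5134 (2416 higher), with more features tested. With fewer tumours, limma called 110 genes among E2F1 null tumours (86 higher, 24 lower; 47 cell cycle genes higher), and 0 among E2F3 heterozygous and 0 among wild-type tumours, with 1055 and 2357 at an unadjusted p under 0.05. With groups of 10, and within E2F1 null and wild-type tumours, the block could not be estimated and was left out. Without E2F1 null replicate 6 the count was 3035, and without the 3 low tumours with the highest fibroblast scores 2759. E2F2 null tumours alone were not run, with 1 low tumour. The split turned with quantile normalization (1698 higher, 1539 lower) and the S phase score (1574 higher, 1557 lower); the median over all genes was 0.02 with quantile normalization and -0.02 as reported, and fewer genes were then called lower on the milk (3), adipocyte (2), circadian clock (1), keratinization (1) and B cell (1) lists. No paired analysis was possible because replicate numbers only name samples.

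The direction of Ccnd1, -0.04 as reported, was positive in most alternatives: 0.14 without genotype, 0.079 without the block, 0.060 over means per label number, 0.22 with groups of 10, 0.13 with groups of 40, 0.036 with a continuous score, 0.96 with the S phase score, 0.27 with the fibroblast score, 0.38 with 3 cell type scores, 0.031 with the Gapdh ratio, 0.43 among E2F1 null, 0.028 among wild-type tumours and 0.057 without the 3 low tumours. Myc turned to -0.042 without E2F1 null replicate 6, -0.061 without the 3 low tumours, -0.33 with the fibroblast score, -0.32 with 3 cell type scores and -0.025 among E2F3 heterozygous tumours. With the fibroblast score, sign also turned for Asns (-0.17), Krt5 (0.012), Septin9 (0.011), Mmp9 (0.10), Apcdd1 (0.16) and Psd3 (0.071), and with 3 cell type scores for Asns (-0.093), Mmp9 (0.22), Apcdd1 (0.091), Dbn1 (0.016) and Psd3 (0.12). Among E2F3 heterozygous tumours it turned for Cdkn1b (-0.041), Rb1 (0.15), Krt19 (0.032), Cst10 (-1.43), Tesc (-0.81), Homer2 (-0.48), Socs2 (-0.59), Septin9 (0.17) and Fos (0.29). The cause of these changes was not tested.

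The E2F2 null score difference of 0.38 was 0.27 with each tumour as 1 value and 0.24 with S phase genes, neither past the threshold. In only the 100 bases before the start, shares among genes called higher were 6.62% for the cell cycle homology element, 29.8% for the CCAAT box, 2.79% for the E2F site and 4.55% for the E-box, by the shorter window; over all tested genes they were 5.72%, 22.8%, 1.55% and 4.51%.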

Other observations

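Lists not described above were smaller or mixed. Their counts stand against 17% called higher and 21.2% called lower among all tested genes. The circadian clock and RAS shares below were near these. Neutrophil genes were lower in 4 of 9, among them the collagenase Mmp9 at -1.74 (SE 0.52) and the calcium-binding S100a8 at -1.53 (SE 0.57). Keratinization genes were lower in 3 of 10, B cell and plasma cell genes in 2 of 3 and circadian clock genes in 3 of 13, with Per1 at -0.45 (SE 0.15) and Rora at -0.52 (SE 0.16). Of immediate early and heat shock genes 5 of 15 were lower, all also negative with the fibroblast score in the model, where none was called; Egr2, Egr1 and Fos changed by -1.23 (SE 0.28), -0.92 (SE 0.24) and -0.74 (SE 0.23). RAS and MAPK output genes were higher in 2 of 10, led by the transcription factor Etv5 at 1.39 (SE 0.39), and lower in 1. Of 4 Wnt output genes, Apcdd1 was lower at -1.39 (SE 0.37). Skeletal muscle genes were called in 0 of 14, and no T or NK cell marker passed the filter.

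With the fibroblast score in the model, 12 genes were called higher and 30 lower that had not been called in that direction without it. The largest rises in that model were Plagl1 at 1.55 (SE 0.33, limma adjusted p = 0.00445), Cxcl2 at 1.50 (SE 0.45, limma adjusted p = 0.0485), Pimreg at 1.22 (SE 0.21, limma adjusted p = 0.00034) and Rgs1 at 1.13 (SE 0.29, limma adjusted p = 0.0187). The largest falls after Igha were Cxcl17 at -2.01 (SE 0.56), Card14 at -1.84 (SE 0.54), Acsbg1 at -1.83 (SE 0.48) and Clu (clusterin) at -1.70 (SE 0.34, limma adjusted p = 0.00218). These genes were named after their values were seen. Without that term, Acsbg1, Clu and Cxcl17 were also called lower and Pimreg higher, while Plagl1, Cxcl2, Rgs1 and Card14 were not called.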
